A study of Mus musculus with 22 samples.

Results

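The S100 family comprises small calcium-binding proteins, and 8 of its genes were followed here in the hypothalamus of obese mice after icv FGF1: S100a1, S100a4, S100a6, S100a10, S100a11, S100a13, S100a16 and S100b. The genes were taken by symbol from a fixed list, which was chosen with earlier results of these data known. All 8 were found among the 20668 genes counted in nuclei and among the 16304 counted in whole cells. Of 9 other genes listed by an S100 symbol, 6 were found in each assay. Among the 9 is S100pbp, which encodes a protein that binds an S100 protein and not a member of the family. The 6 are given as counts, with values for the 1 that was called in the whole cells. The mice were male Lep ob/ob mice of about 11 weeks, which lack leptin and become obese and hyperglycemic, and so both arms carry this mutation. The FGF1 mice received 3 µg of recombinant human FGF1 once into the lateral ventricle. The vehicle mice received PBS and were pair-fed to the FGF1 mice (PF). Nuclei came from a 2 mm hypothalamic punch of 3 FGF1 and 3 vehicle mice on Day 1 and of 2 and 2 mice on Day 5. Whole cells came from the mediobasal hypothalamus of another 6 FGF1 and 6 vehicle mice on Day 5, after neurons had been removed by the authors. The mice for nuclei (B6.Cg-Lep ob/J) came from Jackson Laboratories and those for whole cells (B6.V-Lep ob/JRj) from Janvier Labs. The title of vehicle replicate 35 of the whole cells reads FP where the other vehicle mice read PF, and it was taken as vehicle, as the authors' metadata have it. Each library was 1 mouse, and the comparison asks whether S100 transcripts differ between FGF1 and vehicle in each cell type.

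S100 proteins form dimers that bind calcium through EF-hand motifs, change shape and then dock on target proteins. Many of the targets are annexins and cytoskeletal proteins, and some S100 proteins leave the cell and act on surface receptors. In the brain, S100b is a common marker of astrocytes and ependymal cells, while S100a6, S100a10 and S100a11 are known from reactive glia and from cells that line surfaces. Both tanycytes and ependymal cells face the cerebrospinal fluid of the third ventricle.

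In GRCm38, 7 of the 8 genes lie within 3.05 Mb of chromosome 3, and S100b lies alone at chr10:76253853-76261159. S100a1 (chr3:90511034-90514392, minus strand) and S100a13 (chr3:90514435-90524581, plus strand) start 43 bases apart and run away from each other. S100a16 (chr3:90537254-90543151), S100a4 (chr3:90603771-90606045) and S100a6 (chr3:90612882-90624181) follow on the plus strand. S100a11 (chr3:93520488-93526287) and S100a10 (chr3:93555080-93564643) stand together at the far end of the stretch. Exons of S100a4 share bases with the same-strand gene Gm42674, so that its counts are less certain than those of the others. Promoter windows from 250 bases before to 50 bases after the start were taken from RefSeq for GRCm38.p6, and 7 of the 8 genes matched, S100a16 with 2 starts. The windows below, given 5′ to 3′ on the gene's strand, show S100a11, S100a16 (its second start), S100a6 and S100b, because the first 2 are the windows of these genes that hold the letters below and the others, of 1 gene called on Day 1 and 1 not called, hold none. The choice was made after the search, and the windows of S100a4 and of the first start of S100a16, genes also called on Day 1, hold none either. Capitals mark TGANTCA, the letters bound by AP-1 factors, searched on both strands with no overlap with another motif counted.
S100a11 (chr3:93520246-93520545, plus strand): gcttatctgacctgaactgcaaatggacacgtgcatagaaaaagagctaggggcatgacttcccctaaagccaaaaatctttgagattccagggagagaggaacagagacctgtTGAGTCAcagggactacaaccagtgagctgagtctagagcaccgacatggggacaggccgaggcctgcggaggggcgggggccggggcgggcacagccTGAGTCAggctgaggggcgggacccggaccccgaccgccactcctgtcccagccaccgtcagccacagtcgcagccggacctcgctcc
S100a16 (chr3:90540896-90541195, plus strand): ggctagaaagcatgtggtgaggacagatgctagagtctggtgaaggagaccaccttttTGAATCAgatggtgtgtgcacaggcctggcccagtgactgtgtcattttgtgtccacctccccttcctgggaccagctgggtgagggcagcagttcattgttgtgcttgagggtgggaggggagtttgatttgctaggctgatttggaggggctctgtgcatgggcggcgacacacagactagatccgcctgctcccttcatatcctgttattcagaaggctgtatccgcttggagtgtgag
S100a6 (chr3:90612644-90612943, plus strand): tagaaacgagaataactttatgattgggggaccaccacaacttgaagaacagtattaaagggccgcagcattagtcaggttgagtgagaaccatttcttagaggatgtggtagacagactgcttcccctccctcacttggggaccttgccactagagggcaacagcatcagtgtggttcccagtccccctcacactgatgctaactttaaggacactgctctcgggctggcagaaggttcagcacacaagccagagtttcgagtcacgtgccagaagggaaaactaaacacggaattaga
S100b (chr10:76253586-76253885, plus strand): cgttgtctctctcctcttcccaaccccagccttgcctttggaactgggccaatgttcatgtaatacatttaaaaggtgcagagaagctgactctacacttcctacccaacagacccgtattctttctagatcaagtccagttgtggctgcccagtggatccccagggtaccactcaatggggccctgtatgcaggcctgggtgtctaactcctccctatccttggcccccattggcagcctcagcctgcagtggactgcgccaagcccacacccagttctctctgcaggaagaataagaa
These letters stood at 2 places in the window of S100a11, 136 and 38 bases before the start, and at 1 place in the second window of S100a16, 192 bases before it. That makes 2 of 8 windows of these genes, beside 7.81% of 32851 promoter windows of the genome. A match of letters is a description of the sequence and not evidence of binding.

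In vehicle mice the 8 genes had their highest levels in different cell types, as the plot of levels by cluster shows. Whole cells were followed by cluster number of the deposited metadata, and each cluster was called X-like from marker genes. The name of cluster 0 is uncertain, since it held 3 of 10 tanycyte and 3 of 9 ependymal markers at a similar summed level, 1634 and 1712 CPM, and is called tanycyte-like here. The levels are UMI counts scaled to a fixed library total, CPM, of the summed cells of a mouse, as mean ± SD over the vehicle mice with at least 10 cells. S100a6, or calcyclin, peaked in the tanycyte-like clusters 7 (4942 ± 566), 0 (3941 ± 586) and 10 (2181 ± 372), ahead of the ependymal-like cluster 6 (1612 ± 207). S100a4, a partner of non-muscle myosin, followed the same order, with 300.2 ± 119 CPM in cluster 7 and 187 ± 33.7 in cluster 0. S100a10, or p11, the partner of annexin A2, had its highest levels in the cluster 13 of vascular and leptomeningeal-like cells (VLMC, 215 ± 30.9), in tanycyte-like cluster 0 (205 ± 44.0) and in ependymal-like cluster 6 (200.03 ± 56.5). S100a11 is the partner of annexin A1, and its levels in smooth-muscle-like cluster 19 stood at 414 ± 218 CPM, ependymal-like cluster 6 at 315 ± 67.2 and VLMC-like cluster 13 at 287 ± 88.2. Oligodendrocyte-lineage precursors headed the other genes. S100a1, known from muscle as a partner of ryanodine receptors, reached 1654 ± 296 CPM in cluster 5, of oligodendrocyte precursor-like cells (OPC), and 1574 ± 543 in cluster 9, of committed precursor-like cells (COP). S100a16 stood at 1285 ± 212 and 1082 ± 534 CPM in the same clusters. S100a13, which takes part in the release of FGF1 from cells, and S100b were both highest in COP-like cluster 9, at 1278 ± 297 and 1972 ± 489 CPM. S100b was lowest in tanycyte-like cluster 7 (138 ± 52.5 CPM). Neighbouring clusters in these orders were compared by an exact two-sided sign-flip permutation test over mice, in which 6 mice allow no p below 0.03125 and fewer mice only a larger one. After adjustment over the 16 pairs of a gene it could hardly pass, and 0 pairs did, so that it does not show that neighbours are alike. For S100a6, cluster 7 against 0 and cluster 0 against 10 both gave this smallest exact p (adjusted p = 0.167), and cluster 10 against 6 gave an exact p of 0.0938. The authors formed the clusters from expression in these same cells, so the levels are a description.

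**Figure D1:**
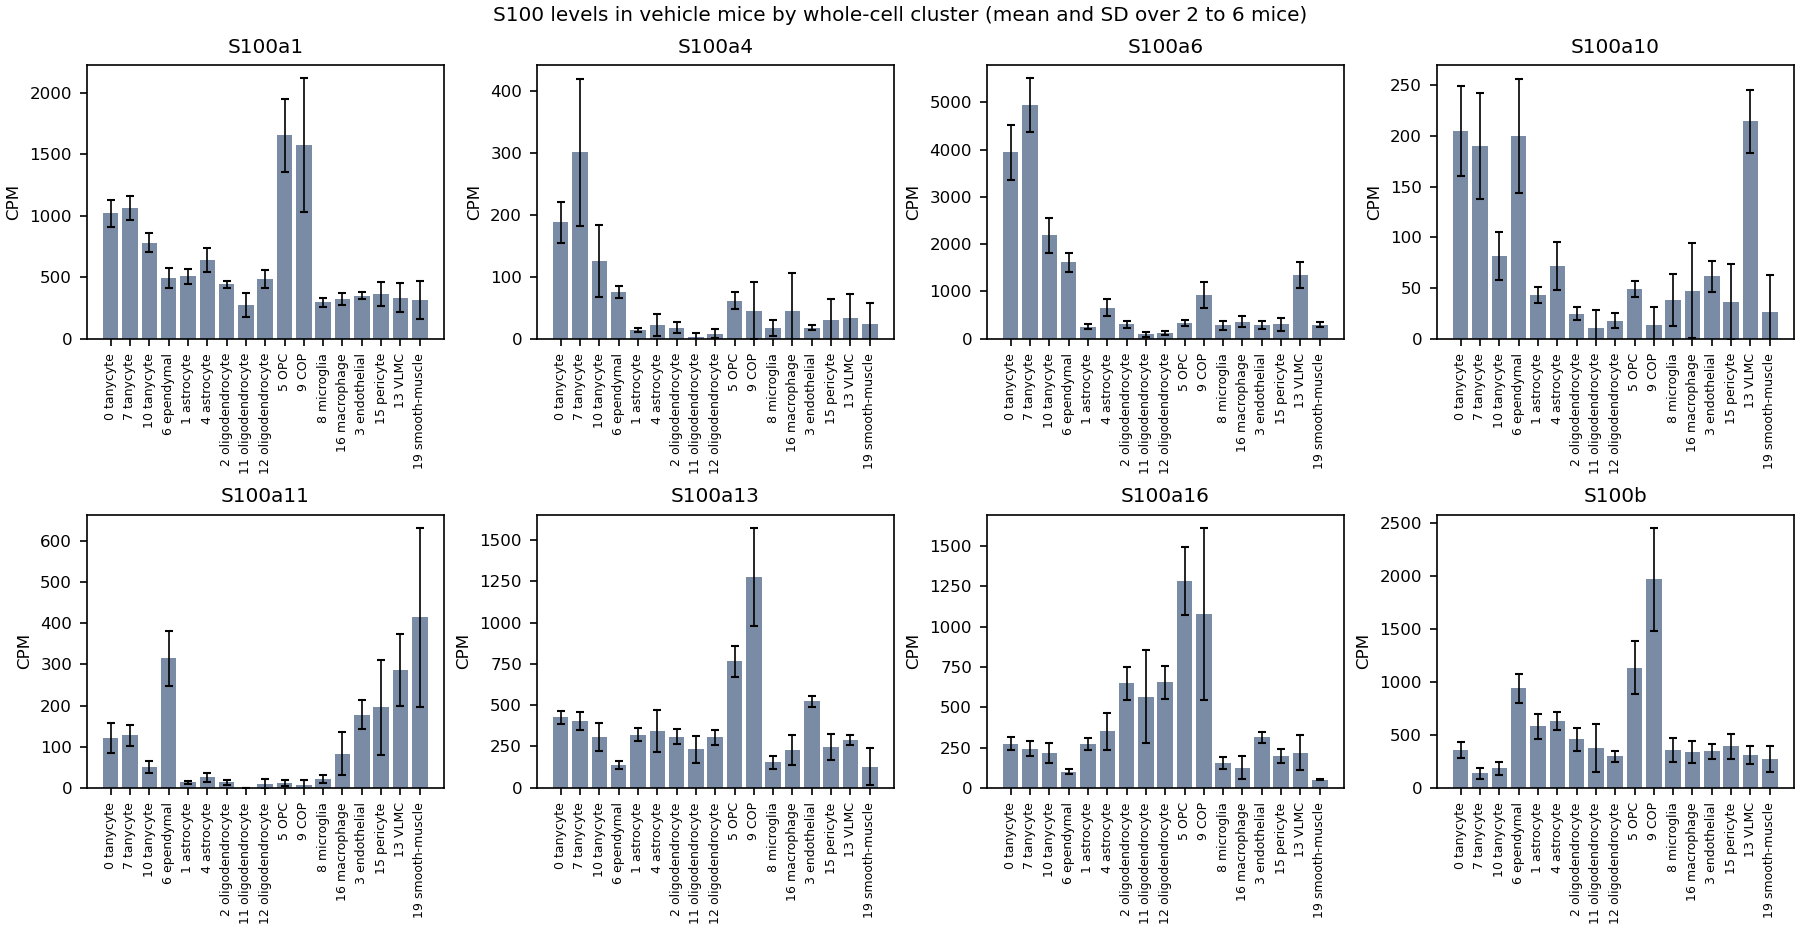
Bars give the mean CPM of each S100 gene in vehicle mice (y axis, own scale for each gene, from 0) by whole-cell cluster (x axis), and whiskers give the SD over 2 to 6 mice. S100a6 and S100a4 are highest in tanycyte-like clusters 7 and 0, whereas S100a1 and S100a16 are highest in OPC-like cluster 5 and S100a13 and S100b in COP-like cluster 9.

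In nuclei of Day 1 vehicle mice, S100a6 was again highest in tanycytes (801 ± 162 CPM), then in VLMC (483 ± 208) and ependymal cells (454 ± 75.8). S100b was highest in astrocytes (293 ± 120.3 CPM), and S100a11 in VLMC (239.6 ± 145). Across the 17 whole-cell clusters, the pair of members with the most similar levels was S100a4 and S100a6 (Pearson r = 0.85 on log2(CPM + 1)), followed by S100a13 and S100a16 (r = 0.80), and the most opposed pair was S100a11 and S100a16 (r = −0.75). Among 11680 genes with at least 20 CPM in some cluster, Rcn1, which encodes a calcium-binding protein of the endoplasmic reticulum, was the most like both S100a4 (r = 0.95) and S100a6 (r = 0.87). The most like S100a11 were Ifitm3 (r = 0.97) and Ahnak (r = 0.96), and S100a10 was followed most closely by Rsph9, a gene of the motile cilium (r = 0.93). The clusters share mice and libraries, and these values are descriptions without a test.

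On Day 1, 5 of the 8 S100 genes were called higher after FGF1 in the cells that line the ventricle, and 4 of the 8 in astrocytes. With the authors' batch blocked, the S100a6 call in tanycytes and 3 of the astrocyte calls were lost. S100a4, S100a6, S100a10, S100a11 and S100a16 were all higher after FGF1 in tanycytes and ependymal cells, by 4.21- to 16.4-fold, and the first 4 of them also in astrocytes, by 7.33- to 27.6-fold. S100a1, S100a13 and S100b were not called in any cell type on Day 1. Calls were made with edgeR's quasi-likelihood test on UMI counts summed per mouse and cell type, at a Benjamini-Hochberg FDR below 0.05 over all genes tested in that type. In tanycytes 5 of 8 tested members were called, all higher, while 9.14% of all 3534 genes were called and 5.38% were called higher. In ependymal cells 5 of 7 tested members were called, all higher, beside 19% of 1456 genes and 10.2% higher, and S100a13 did not pass the count filter. In astrocytes 4 of 8 were called, all higher, beside 1.55% of 6063 genes and 1.39% higher. Of these 14 calls, 10 were of members that passed the count filter through the FGF1 arm alone, 3 in tanycytes, 4 in ependymal cells and the other 3 in astrocytes, while S100a6 in all 3 cell types and S100a16 in tanycytes passed in either arm. The counts of calls are therefore a description. Without the filter, each of the 3 cell types gave 5 calls.

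**Figure D2:**
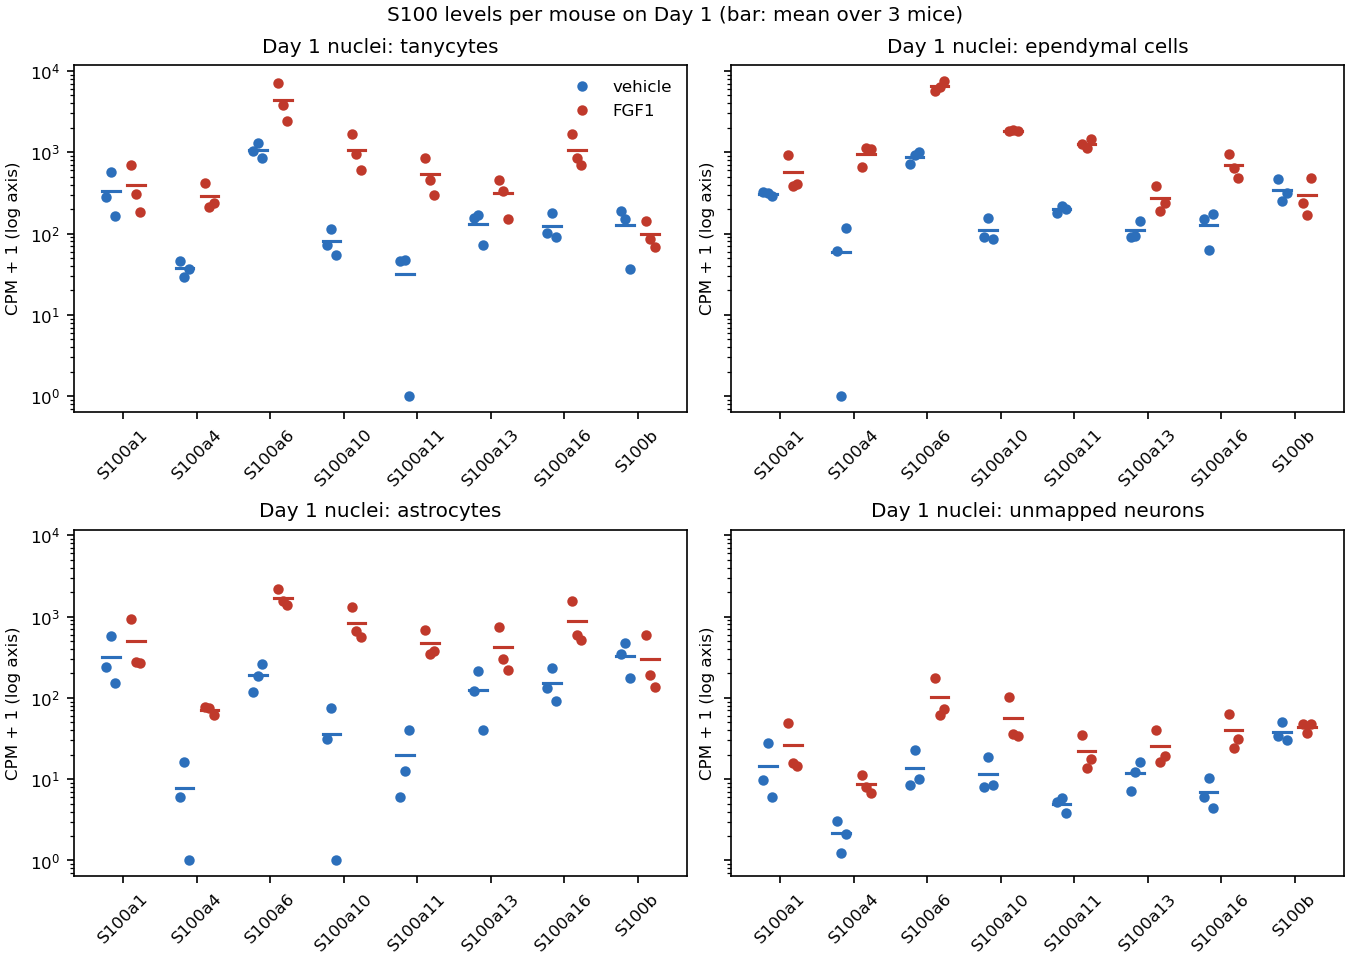
Points give the level of each S100 gene in each Day 1 mouse (y axis, TMM-scaled CPM + 1 on a log axis) for vehicle (blue) and FGF1 (red) in 4 cell types of the nuclei, and bars give the mean of 3 mice. In tanycytes and ependymal cells the FGF1 mice lie above the vehicle mice for S100a4, S100a6, S100a10, S100a11 and S100a16, while S100b overlaps in all 4 panels.

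The members that bind annexins, S100a10 and S100a11, were called higher in all 3 cell types, in astrocytes less firmly: there the S100a10 call was lost with the authors' batch blocked (FDR = 0.132) and in 4 of 6 fits without 1 mouse, and that of S100a11 in 2 of 6. Levels here and below are CPM scaled by TMM, listed in the order of replicates 1, 2 and 3. S100a10 in tanycytes stood at 1662, 947 and 603 CPM in the FGF1 mice and at 72.3, 112 and 53.8 CPM in the vehicle mice (log2 fold change 3.71 ± 0.52, FDR = 0.00135). In ependymal cells S100a10 stood at 1847, 1874 and 1811 against 88.9, 155 and 85.9 CPM (log2 fold change 4.03 ± 0.37, FDR = 1.82e-06). The lowest FGF1 mouse was above the highest vehicle mouse in both cell types, and the 3 FGF1 mice were nearly level in ependymal cells. Astrocytes held S100a10 at 1294, 660.2 and 561 against 30.5, 73.5 and 0 CPM (log2 fold change 4.44 ± 0.92, FDR = 0.0386), again with no overlap and with FGF1 replicate 1 well above the other 2. S100a11 in tanycytes stood at 849.9, 453 and 301 CPM after FGF1 and at 45.2, 46.8 and 0 CPM after vehicle (log2 fold change 3.92 ± 0.60, FDR = 0.00201). For S100a11 in ependymal cells the levels were 1251, 1139 and 1435 against 178, 218 and 200.4 CPM (log2 fold change 2.66 ± 0.33, FDR = 3.67e-05). The groups did not overlap, and the vehicle level was higher in ependymal cells than in tanycytes. In astrocytes S100a11 rose from 5.09, 11.6 and 39.2 CPM to 684, 346 and 374 CPM (log2 fold change 4.79 ± 0.72, FDR = 0.00964), the largest fold change among the members, from only 13 UMIs over the 3 vehicle mice.

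S100a4 and S100a6, whose partners include non-muscle myosin and the ubiquitin ligase adaptor Cacybp, rose in the same 3 cell types. S100a6 in tanycytes stood at 7098, 3796 and 2411 against 1030.2, 1282 and 843 CPM (log2 fold change 2.07 ± 0.46, FDR = 0.0154). This call was lost with the authors' batch blocked (FDR = 0.0864) and in 2 of 6 fits without 1 mouse. In ependymal cells S100a6 reached 5601, 6264 and 7519 against 712, 933 and 1002 CPM (log2 fold change 2.87 ± 0.34, FDR = 2.94e-05). Neither pair of groups overlapped, and the FGF1 mice were closer to each other in ependymal cells than in tanycytes. S100a6 in astrocytes stood at 2175, 1557 and 1403 against 117, 184 and 261 CPM (log2 fold change 3.20 ± 0.62, FDR = 0.0291). S100a4 in tanycytes stood at 419, 209 and 234 against 45.2, 28.1 and 35.9 CPM (log2 fold change 2.99 ± 0.49, FDR = 0.00273). In each of these comparisons every FGF1 mouse exceeded every vehicle mouse. For S100a4 in ependymal cells the levels were 655, 1115 and 1094 against 59.3, 0 and 115 CPM (log2 fold change 3.93 ± 0.51, FDR = 5.15e-05). In astrocytes S100a4 was scarce, at 76.2, 74.5 and 60.1 against 5.09, 15.5 and 0 CPM (log2 fold change 2.87 ± 0.59, FDR = 0.0351), with 9 UMIs over the 3 vehicle mice, so that it passed the count filter through the FGF1 arm alone, and its call was lost in 5 of 6 fits without 1 mouse, as was that of S100a6 in astrocytes. Vehicle replicate 2 had no S100a4 UMI in ependymal cells, and vehicle replicate 3 had none in astrocytes.

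S100a16, a broadly expressed member, rose in tanycytes, at 1654, 846 and 687 against 99.4, 178 and 89.7 CPM (log2 fold change 3.09 ± 0.49, FDR = 0.00241), and in ependymal cells, at 953, 641 and 478 against 148, 62.2 and 172 CPM (log2 fold change 2.40 ± 0.44, FDR = 0.000945). In astrocytes S100a16 stood at 1558, 591 and 508 against 132, 230.3 and 91.4 CPM and was not called (log2 fold change 2.53 ± 0.67, FDR = 0.112), although the groups did not overlap there either. FGF1 replicate 1 had the highest S100a16 level in all 3 cell types. S100a13, the member tied to FGF1 release, stood at 453, 335 and 151 against 154, 168 and 71.8 CPM in tanycytes (log2 fold change 1.25 ± 0.45, FDR = 0.108) and at 746, 303 and 220.4 against 122, 211 and 39.2 CPM in astrocytes (log2 fold change 1.74 ± 0.68, FDR = 0.387). Neither passed the test, and the groups overlapped in tanycytes. S100a1 in tanycytes stood at 695, 310.1 and 184 against 280.1, 571 and 161 CPM (log2 fold change 0.26 ± 0.52, FDR = 0.807), with overlapping groups. In ependymal cells S100a1 gave a log2 fold change 0.88 ± 0.40, FDR = 0.138, and in astrocytes a log2 fold change 0.62 ± 0.70, FDR = 0.965. S100b, the glial marker, stood at 583, 189 and 134 against 341, 474 and 176 CPM in astrocytes (log2 fold change -0.12 ± 0.65, FDR = 0.993). The S100b groups also overlapped in tanycytes (log2 fold change -0.34 ± 0.50, FDR = 0.737) and in ependymal cells (log2 fold change -0.30 ± 0.45, FDR = 0.700).

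The size of the response did not differ detectably among the 3 cell types. In a fit of all 3 with the mouse as a block, 0 of 24 differences of fold change passed an FDR of 0.05 in edgeR's test, and 2 had an unadjusted p under 0.05, while 0.00%, 0.106% and 0.282% of 5682 genes passed for the 3 pairs of cell types. The log2 difference of fold change was -2.16 ± 0.71 for S100a11, ependymal cells minus astrocytes (FDR = 0.288), and -1.26 ± 0.50 for S100a6, tanycytes minus astrocytes (FDR = 0.561). A p above the threshold does not show that the cell types respond alike.

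Cell number, library and cell composition varied beside these results. Day 1 mice contributed 13 to 35 vehicle nuclei of either ventricular type and 45 to 388 astrocyte nuclei of either arm. The authors' batch paired 1 FGF1 with 1 vehicle mouse in each of 3 batches. Within all 3 batches the FGF1 mouse was higher for S100a4, S100a6, S100a10, S100a11 and S100a16 in all 3 cell types. As the arms did not overlap for these genes, any pairing of the mice would give this, and it adds nothing on the batch. The within-batch log2 ratio of S100a10 ran from 3.53 to 4.41 in ependymal cells, and that of S100a11 from 2.64 to 2.72. With the batch as a block, an alternative added after seeing the data, tanycytes gave 4 calls, ependymal cells 5 and astrocytes 1. The calls lost were S100a6 in tanycytes (FDR = 0.0864) and S100a4, S100a6 and S100a10 in astrocytes (FDR = 0.0989, 0.229 and 0.132). The astrocyte count fell to 0 without vehicle replicate 1 or 2, and to 1 without vehicle replicate 3 or FGF1 replicate 2, whereas the count was 4 to 6 in tanycytes and 5 in ependymal cells when any mouse was left out. S100a6 in tanycytes lost its call in 2 of these 6 fits. FGF1 replicate 1 had a median of 2.21% ribosomal UMIs a nucleus, against 0.902% to 1.29% in the other Day 1 mice. Without that mouse, the 3 cell types gave 5, 5 and 3 calls in the same order.

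The ventricular labels carried markers of more than 1 cell type. With a marker counted where at least 10% of nuclei had it at 2-fold enrichment, tanycytes held 7 of 10 tanycyte and 9 of 9 astrocyte markers, and ependymal cells held 8 of 8 ependymal and 9 of 9 astrocyte markers, while astrocytes held 9 of 9 astrocyte, 1 of 10 tanycyte and 1 of 8 ependymal markers. Astrocyte markers summed to 1525 to 2261 CPM in FGF1 and to 1982 to 2991 CPM in vehicle tanycytes, and to 753 to 1812 CPM and 1881 to 2592 CPM in ependymal cells. The 10 tanycyte markers summed to 1329.95 to 3314 CPM in FGF1 and to 2566 to 3166 CPM in vehicle tanycytes. The ependymal markers summed in ependymal cells to 1127 to 1848 CPM after FGF1, against 2979 to 4074 CPM after vehicle. In tanycytes the ependymal markers summed to 113 to 135 CPM after FGF1 and to 518 to 827 CPM after vehicle. The 5 neuron markers summed to 2781 to 5853 CPM in FGF1 and to 2293 to 2664 CPM in vehicle ependymal cells. The 8 VLMC markers, from a cell type in which S100a10 and S100a11 are high, summed to 365 CPM in the tanycytes and to 261 CPM in the astrocytes of FGF1 replicate 3, against 13.3 to 42.1 CPM in the tanycytes and 20.9 to 77.9 CPM in the astrocytes of the other 5 mice. In ependymal cells they summed to 215 CPM in vehicle replicate 3 and to 0 to 98.0 CPM in the other 5 mice. Without FGF1 replicate 3, tanycytes gave 6 calls, ependymal cells 5 and astrocytes 3. In bulk sums of nuclei, a change of the nuclei that carry a label and a change of RNA per nucleus cannot be told apart, and the part of the marker shifts in the S100 results was not tested.

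Outside these 3 cell types the number of S100 calls depended on the test, with 3 by edgeR, 10 by DESeq2 and 12 by edgeR with no count filter. Over the other 15 cell types of the Day 1 nuclei, 31 tests were possible and 3 members were called, all higher. The unadjusted p of edgeR was under 0.05 in 12 of 15 neuron tests and 10 of 16 other tests, beside 18 of 23 in the 3 cell types above. Over all Day 1 types tested, the fold change was positive in 11 of 11 for S100a6 and in 9 of 9 for S100a10. These signs were partly fixed by the count filter and are a description. S100a10 passed the filter in either arm only in the unmapped neurons, and elsewhere through the FGF1 arm alone. S100a6 passed through the FGF1 arm alone in COP, microglia, oligodendrocytes and the n06, n16 and n29 neurons. Among the tests without a call in these other types, 13 passed the count filter through the FGF1 arm alone. In the 12 types without a call, 0.00% of genes were called in 9, and 0.0288% in n06.Oxt neurons, 0.298% in n13.Agrp/Gm8773 neurons and 2.26% in VLMC. All 3 called members passed the count filter through the FGF1 arm alone. S100a10 was called in COP, at 106 ± 55.7 against 5.51 ± 5.47 CPM (log2 fold change 4.15 ± 0.70, FDR = 0.0393), where 0.0892% of all genes were called. In the Nr5a1/Adcyap1 neurons of the ventromedial nucleus (n29) S100a10 was called at 45.5 ± 23.2 against 2.80 ± 1.14 CPM (log2 fold change 4.06 ± 0.60, FDR = 0.0243), where 0.119% were called. S100a6 was called in oligodendrocytes, at 143 ± 57.0 against 19.01 ± 3.71 CPM (log2 fold change 2.92 ± 0.43, FDR = 0.0150), where 0.222% were called. Each of these rests on few UMIs, with 3 UMIs of S100a10 over the vehicle COP and 4 over the vehicle n29 neurons. With the batch as a block the FDR values were 0.192 in COP, 0.0621 in n29 neurons and 0.0878 in oligodendrocytes, and the calls were lost in 5, 3 and 3 of 6 fits without 1 mouse.

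Neurons that the study could not map to a published type formed the largest group of Day 1 nuclei, with 4231 FGF1 and 2144 vehicle nuclei. There 0 of 8 members were called by edgeR (0.00% of 13681 genes), 6 had an unadjusted p under 0.05, and DESeq2 called 4. S100a6 in these neurons stood at 172, 61.0 and 72.3 CPM in the FGF1 mice and at 7.50, 21.9 and 9.08 CPM in the vehicle mice (log2 fold change 2.94 ± 0.54, FDR = 0.355). S100a16 stood at 62.4, 23.3 and 30.4 against 5.00, 9.24 and 3.40 CPM (log2 fold change 2.65 ± 0.49, FDR = 0.340). The 3 FGF1 mice lay above the 3 vehicle mice for both genes, at levels far under those of ventricular cells. Free RNA in the droplets gives such low counts in cells that do not express a gene, and its part in the neuron values was not tested.

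The number of nuclei with a UMI is given for S100a10 and S100a6, as a count of nuclei rather than of UMIs. With every nucleus thinned to 1000 UMIs, 55.2% ± 12.1 of FGF1 and 8.93% ± 7.78 of vehicle tanycytes had S100a10 (SD, n = 3 mice each). The shares were 68.0% ± 3.70 and 11.6% ± 9.92 in ependymal cells and 46.0% ± 12.2 and 3.96% ± 5.42 in astrocytes. In the unmapped neurons, which serve as the background, the shares were 5.39% ± 3.79 and 1.08% ± 0.731. The mean share of tanycytes with S100a10 was above that of neurons in both arms. As deposited, at a median of 2803 UMIs in FGF1 and 3707 in vehicle tanycytes, the shares were 75.0% ± 20.6 and 21.8% ± 6.79, beside 12.9% ± 6.08 and 3.93% ± 2.09 in the unmapped neurons at medians of 2214 and 3228.5 UMIs. S100a6 was found in 85.7% ± 6.85 of FGF1 and 50.9% ± 5.64 of vehicle tanycytes after thinning, against 9.71% ± 6.56 and 1.36% ± 0.440 of the unmapped neurons. As deposited, the S100a6 shares were closer, at 91.5% ± 6.87 of FGF1 and 84.6% ± 8.58 of vehicle tanycytes. In the unmapped neurons they were 20.7% ± 8.94 and 4.26% ± 2.43. With 3 mice an arm the exact two-sided permutation test cannot go below p = 0.1, and 0 of 24 shares passed.

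Some genes that work with S100 proteins were called higher on Day 1. Of 22 listed partners and export genes, 8 could be tested in tanycytes and 4 were called, all higher, beside 9.14% of all genes. Plaur, with 1 vehicle UMI, could pass the count filter only through the FGF1 arm. Few vehicle UMIs also stood behind Plat (11) and Myh9 (12) in tanycytes, Plat (16) in ependymal cells and Anxa2 (14) in astrocytes. S100a10 with 23 vehicle UMIs in tanycytes, S100a11 with 20 in ependymal cells and S100a10 with 44 in astrocytes passed through the FGF1 arm alone. The counts of partners are therefore a description. Values in brackets for listed genes, here and below, are log2 fold changes ± SE. Called were Plaur, the urokinase receptor (5.27 ± 0.73, FDR = 0.00135), from 1 vehicle UMI, Anxa2, which encodes the annexin that binds S100a10 (2.86 ± 0.49, FDR = 0.00344), Plat, or tissue plasminogen activator (2.62 ± 0.43, FDR = 0.00278), and Myh9, the myosin bound by S100a4 (2.24 ± 0.47, FDR = 0.0107). In ependymal cells, where 19% of all genes were called, 2 of 5 tested partners were called, Anxa2 (2.76 ± 0.34) and Plat (1.80 ± 0.44). In astrocytes, beside 1.55% of all genes, 2 of 16 were called, Plaur (5.93 ± 0.70), again from 1 vehicle UMI, and Anxa2 (4.26 ± 0.51). None of the listed partners was lower. Other EF-hand genes, such as those of calmodulins and calbindins, gave 0 calls in any of the 3 cell types, among 8, 3 and 15 genes tested. Their median log2 fold changes were 0.22, 0.06 and -0.07.

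In nuclei of Day 5 no S100 gene was called. In all, 11 cell types had at least 10 nuclei in 2 mice of each arm and gave 30 tests, with 0 calls by edgeR and 4 unadjusted p under 0.05. DESeq2 gave an adjusted p for 20 of them and also called 0. By edgeR, 0.00% of all genes were called in unmapped neurons, 0.0782% in n16.Rgs16/Vip neurons, 0.0845% in Glu4, 0.103% in n06.Oxt, 0.119% in oligodendrocytes, 0.121% in microglia, 0.149% in n13.Agrp/Gm8773, 0.281% in n29, 0.321% in Glu5 and 1.28% in COP. Tanycytes and ependymal cells could not be tested, since 1 and 0 of the 2 vehicle mice had 10 nuclei. In astrocytes, where 0.625% of genes were called, S100a11 stood at 42.6 and 37.5 CPM in the 2 FGF1 mice and at 13.02 and 0 CPM in the 2 vehicle mice (log2 fold change 1.92 ± 0.59, FDR = 0.150). S100a6 stood at 238 and 327 against 135 and 155 CPM (log2 fold change 0.99 ± 0.38, FDR = 0.256). Neither gene passed the test. The arms did not overlap for either, but arms of 2 mice often lie apart by chance, and the share over all genes was not counted. S100a11 passed the count filter through the FGF1 arm alone, with 8 vehicle UMIs. S100a10 in the same nuclei stood at 90.2 and 93.2 against 74.9 and 42.4 CPM (log2 fold change 0.51 ± 0.38, FDR = 0.609). Plat, the gene of tissue plasminogen activator, was the only listed partner called (1.95 ± 0.41, 14 tested). Leaving out 1 mouse gave 0 to 2 calls, 1 without FGF1 replicate 37 and 2 without vehicle replicate 38, but such a fit has 1 mouse in an arm, which is assumed to vary like the 2 of the other arm. The log2 difference of effect, Day 5 minus Day 1, was -3.81 ± 1.08 for S100a10 and -2.22 ± 0.74 for S100a6, and 0 of 8 members passed the interaction test in astrocytes (edgeR, FDR = 0.372 for S100a10, 5 of 8 at an unadjusted p under 0.05), as did 0.00% of 8872 genes. Day and run cannot be told apart in this design.

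In whole cells of Day 5, S100a11 was called higher in 7 clusters and S100a6 in 6, more than any other member. Of 105 tests over 16 clusters, 21 were called higher and 2 lower, while by cluster 0% to 6.63% of all genes were called. S100a11 could be tested in 9 clusters and was called in 7, and S100a6 was called in 6 of 16, with a positive fold change in all 16. S100a10 was called in 4 of 10 clusters, S100a16 in 2 of 14 and S100a4 in 1 of 9, all higher. S100b was higher in 1 cluster and lower in another, S100a13 was lower in 1, and S100a1 was called in 0 of 16 clusters (edgeR). Of the members called higher, S100a11 in clusters 2, 4 and 10 and S100a6 in cluster 11 passed the count filter through the FGF1 arm alone, so that the counts of clusters are a description.

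**Figure D3:**
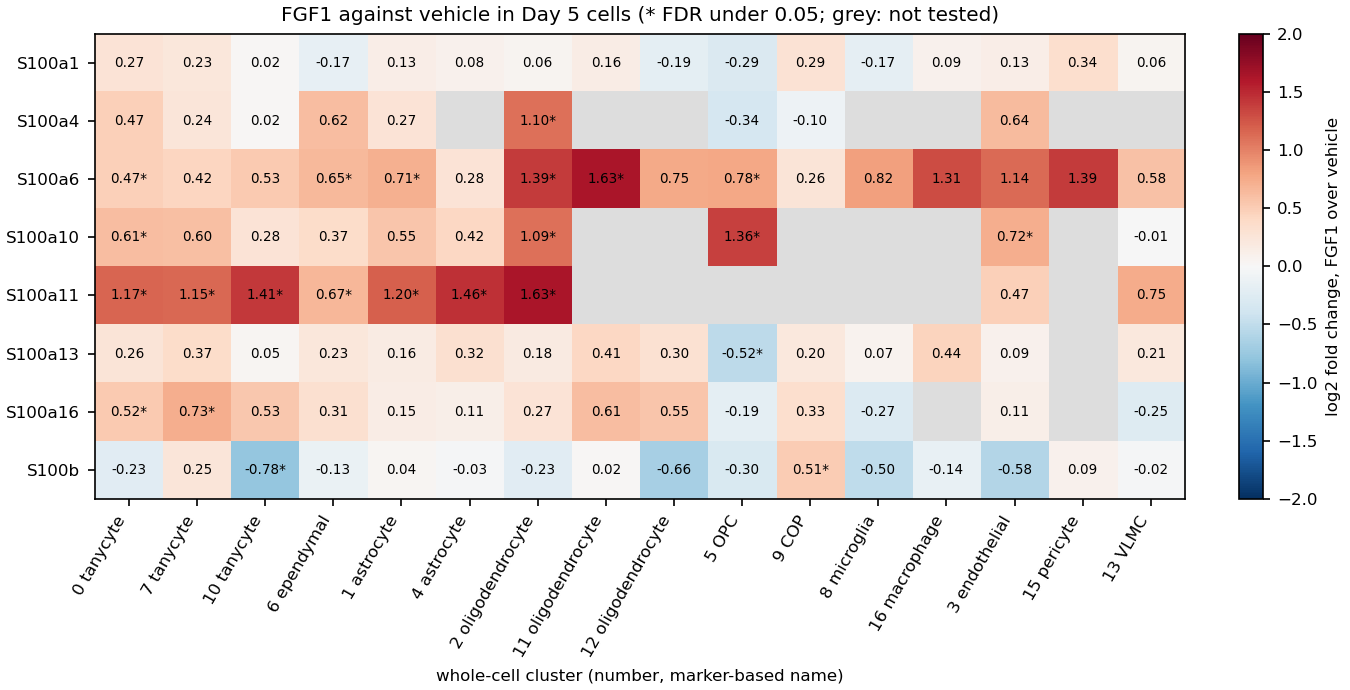
Cells of the map give the log2 fold change, FGF1 over vehicle, of each S100 gene (rows) in each whole-cell cluster of Day 5 (columns, number and marker-based name), with an asterisk for an FDR below 0.05 and grey for genes not tested. S100a11 is higher with an asterisk in clusters 0, 7, 10, 6, 1, 4 and 2, and S100a13 is lower with an asterisk in OPC-like cluster 5.

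Clusters 0, 7 and 10, called tanycyte-like, gave 8 of the 23 calls, 4 of them in cluster 0, whose markers were as often ependymal as tanycyte. In cluster 0, S100a6, S100a10, S100a11 and S100a16 were called, all higher (4 of 8 tested, beside 5.27% of 9441 genes and 2.64% higher). S100a11 ran from 195 to 382 CPM (median 259) in the 6 FGF1 mice and from 84.3 to 195 CPM (median 114) in the 6 vehicle mice (log2 fold change 1.17 ± 0.20, FDR = 0.00371). S100a16 ran from 335 to 455 CPM (median 380.3) after FGF1 and from 214 to 343 CPM (median 269) after vehicle (log2 fold change 0.52 ± 0.11, FDR = 0.00589). In both genes the arms met at the edge only, where the highest vehicle mouse was just above the lowest FGF1 mouse. S100a10 ran from 208 to 432 CPM (median 291) and 173 to 296 CPM (median 185) (log2 fold change 0.61 ± 0.17, FDR = 0.0355). S100a6, already high in vehicle mice, ran from 4275 to 6735 CPM (median 5514) and 3139 to 4904 CPM (median 3826) (log2 fold change 0.47 ± 0.12, FDR = 0.0228), and its FDR was 0.0617 once the batch was blocked. Cluster 7 gave 2 calls of 8 (1.94% of genes) over 5 FGF1 and 6 vehicle mice, S100a11 (log2 fold change 1.15 ± 0.16, FDR = 5.84e-05) and S100a16 (log2 fold change 0.73 ± 0.14, FDR = 0.00451). The S100a11 arms were apart there, at 277 to 364 CPM (median 341) and 104 to 178 CPM (median 145). In cluster 10, S100a11 was higher (log2 fold change 1.41 ± 0.30, FDR = 0.00881) and S100b was lower, at 103 to 166 CPM (median 136) against 149 to 329 CPM (median 223) (log2 fold change -0.78 ± 0.19, FDR = 0.0249, beside 2.13% of genes). That S100b call was lost with the batch as a block (FDR = 0.0961) and without the count filter (FDR = 0.147). Leaving out 1 mouse at a time, S100a10 and S100a6 in cluster 0 lost their calls in 8 and 7 of 12 fits and S100b in cluster 10 in 6, while S100a11 and S100a16 lost none. Without vehicle replicate 35, the 3 clusters gave 10 calls in place of 8, and over all 12 fits without 1 mouse they gave 5 to 10. With the 3 clusters merged, S100a10, S100a11 and S100a16 were called (5.08% of genes), S100a10 with a loss of its call without the count filter (FDR = 0.0623) and in 9 of 12 fits without 1 mouse, and S100a6 was not (log2 fold change 0.50 ± 0.15, FDR = 0.0618). The astrocyte markers summed to 2202.5 to 3022 CPM in FGF1 and to 3743 to 4874 CPM in vehicle cells of cluster 0, and their part in the S100 values was not tested.

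Ependymal-like cluster 6 gave 2 calls of 8 (1.28% of genes). S100a6 ran from 2263 to 3096 CPM (median 2757) after FGF1 and from 1435 to 2264 CPM (median 1685) after vehicle (log2 fold change 0.65 ± 0.14, FDR = 0.0143). S100a11 ran from 477 to 637 CPM (median 520.4) and 239.6 to 466.4 CPM (median 324) (log2 fold change 0.67 ± 0.15, FDR = 0.0145). Every FGF1 mouse exceeded every vehicle mouse for S100a11, and the S100a6 arms touched. S100a4 just missed the threshold (log2 fold change 0.62 ± 0.17, FDR = 0.0506). FGF1 was higher than vehicle within all 6 batches for S100a6, and for S100a11, where this follows from the lack of overlap. Without 1 mouse, the S100a11 call was lost in 2 of 12 fits (FDR up to 0.0653) and the S100a6 call in 1 (FDR = 0.0505).

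Of the astrocyte-like clusters, cluster 1 held mostly vehicle cells and cluster 4, which is led by Gfap, mostly FGF1 cells. In cluster 1, 2 of 8 members were called, both higher (0.404% of genes). S100a6 ran from 308 to 543 CPM (median 447) and 211 to 339 CPM (median 259) (log2 fold change 0.71 ± 0.14, FDR = 0.00883), and S100a11 from 0 to 51.7 CPM (median 31.1) and 8.41 to 18.6 CPM (median 14.5) (log2 fold change 1.199 ± 0.29, FDR = 0.0438). The S100a11 arms overlapped, since 1 FGF1 mouse had no UMI, and the call was lost in 6 of 10 fits without 1 mouse. In cluster 4, S100a11 alone was called (1 of 7, beside 0.385% of genes), at 43.9 to 95.2 CPM (median 76.7) against 13.9 to 41.3 CPM (median 23.2) (log2 fold change 1.46 ± 0.32, FDR = 0.0172), a call lost in 2 of 12 fits without 1 mouse (FDR up to 0.136). In vehicle mice S100a6 stood at 249.8 ± 52.4 CPM in cluster 1 and at 653 ± 177 CPM in cluster 4. The cluster 1 level was below the 278.6 CPM of microglia-like cluster 8, and the part of free RNA in its S100a6 call was not tested. With both clusters merged, S100a4, S100a6, S100a10 and S100a11 were called, beside 12.6% of 9830 genes. The merged S100a6 fold change (log2 fold change 1.25 ± 0.19, FDR = 0.000550) was larger than that of either cluster, and that of S100a11 was too (log2 fold change 1.88 ± 0.20, FDR = 9.38e-07). Tanycyte markers summed to 63.3 to 138 CPM in FGF1 and to 73.0 to 95.5 CPM in vehicle cells of cluster 1.

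Oligodendrocyte-like cluster 2 gave 4 calls of 8, all higher (0.904% of genes). S100a6 ran from 602 to 1193 CPM (median 749) after FGF1 and from 240.0 to 406 CPM (median 299) after vehicle (log2 fold change 1.39 ± 0.17, FDR = 0.000141). S100a10 ran from 44.2 to 94.5 CPM (median 47.5) and 18.2 to 34.9 CPM (median 24.9) (log2 fold change 1.09 ± 0.21, FDR = 0.00719). The arms were apart for both genes. S100a11 (log2 fold change 1.63 ± 0.29, FDR = 0.00403) and S100a4 (log2 fold change 1.10 ± 0.28, FDR = 0.0486) were called from lower levels. S100a4 lost its call with the batch as a block (FDR = 0.110) and in 9 of 12 fits without 1 mouse. Vehicle means of cluster 2 were below those of microglia-like cluster 8 for S100a11 (13.9 against 21.8 CPM) and S100a10 (24.7 against 38.2 CPM). They were close for S100a4 (17.56 against 16.96 CPM) and S100a6 (299.8 against 278.6 CPM). These vehicle levels are therefore not read as expression by oligodendrocytes. Cluster 8 is not known to lack these genes, so the comparison does not show a lack of expression either. The part of free RNA in the 4 calls was not tested. Tanycyte markers summed to 204 to 512 CPM in FGF1 and to 52.2 to 177 CPM in vehicle cells of this cluster, and ependymal markers to 292 to 717 CPM and 125 to 299 CPM. Their part in the S100 values was not tested. In cluster 11, where tanycyte markers were at 44.9 to 79.2 CPM after FGF1 and at 0 to 151 CPM after vehicle, S100a6 ran from 288 to 458 CPM (median 344) and 42.6 to 233 CPM (median 98.3) (log2 fold change 1.63 ± 0.26, FDR = 0.000111, beside 6.63% of genes). The vehicle mean of S100a6 in cluster 11 was 91.0 CPM, below the 278.6 CPM of cluster 8, and is likewise not read as expression. The part of free RNA in this S100a6 call was not tested. Cluster 11 held 166 vehicle cells in all, with no S100a11 UMI in any of them. Clusters 2, 11 and 12 held 1799, 1212 and 223 FGF1 cells and 5610, 166 and 952 vehicle cells. With these clusters merged, S100a6, S100a10 and S100a11 were called, beside 2.25% of genes, and S100a4 was not (log2 fold change 0.52, FDR = 0.252). In fits without 1 mouse, the merged log2 fold change ran from 0.85 to 0.98 for S100a6 and from 0.63 to 0.76 for S100a10. Both lay below those of cluster 2. The merged S100a10 call was lost in 3 of 12 fits without 1 mouse (FDR up to 0.0729), and the merged S100a11 passed the count filter through the FGF1 arm alone.

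In OPC-like cluster 5 the members moved apart (3 of 7 called, beside 2.39% of genes). S100a10 ran from 81.3 to 185 CPM (median 145) and 43.5 to 69.8 CPM (median 54.6) (log2 fold change 1.36 ± 0.18, FDR = 1.24e-06). S100a6 ran from 558 to 752 CPM (median 624) and 291 to 449 CPM (median 351) (log2 fold change 0.78 ± 0.12, FDR = 2.62e-05). Both rose with no overlap between arms. S100a13 fell, at 461 to 714 CPM (median 610.4) against 752 to 1000 CPM (median 839.9) (log2 fold change -0.52 ± 0.12, FDR = 0.00969). Every FGF1 mouse was below every vehicle mouse, and so also in all 6 batches. S100a1, the head-to-head neighbour of S100a13, was not called in this cluster (log2 fold change -0.29 ± 0.11, FDR = 0.171). In COP-like cluster 9, S100b was higher, at 2838 to 3617 CPM (median 3008) against 1548 to 2778 CPM (median 2064) (log2 fold change 0.51 ± 0.13, FDR = 0.0413, beside 1.25% of genes), a call that was lost with RLE size factors (FDR = 0.0856), with the batch blocked (FDR = 0.0502), in cells under 20% mitochondrial or ribosomal UMIs (FDR = 0.0531) and in 8 of 12 fits without 1 mouse. In endothelial-like cluster 3, S100a10 was higher (log2 fold change 0.72 ± 0.18, FDR = 0.0373, beside 0.948% of genes), and this call too was lost in 8 of 12 such fits and in cells under 20% mitochondrial or ribosomal UMIs (FDR = 0.0785). The microglia-like, macrophage-like, pericyte-like and VLMC-like clusters 8, 16, 15 and 13 and oligodendrocyte-like cluster 12 gave 0 calls by edgeR, with 8 of 24 unadjusted p under 0.05 over these 5 clusters, beside 0.262% of genes in cluster 8, 0.0888% in cluster 12 and 0.00% in the others. S100a6 had log2 fold changes of 0.58 to 1.39 in these 5 clusters, and the lowest FDR was 0.0972.

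After thinning to 1000 UMIs, 10 of 48 shares of cells with a UMI differed between arms in the tanycyte-like, ependymal-like and astrocyte-like clusters (exact two-sided permutation test over mice, Benjamini-Hochberg over the 48). S100a11 was found in 42.1% ± 6.82 of FGF1 and 24.2% ± 3.20 of vehicle cells of ependymal-like cluster 6 (SD, n = 6 mice each, adjusted p = 0.0346) and in 6.35% ± 1.70 and 1.43% ± 1.198 of astrocyte-like cluster 4 (adjusted p = 0.0346). S100a4 passed in cluster 6 by this test, S100b fell in cluster 10, and S100a16 passed in clusters 0 and 7. Cells under 1000 UMIs were left out of these shares, so that 4469 of 5458 FGF1 and 2893 of 4051 vehicle cells of cluster 0 entered, and 1007 of 1531 and 4620 of 7940 cells of cluster 1. With every cell at its own depth and none left out, 0 of 48 shares passed, with a smallest adjusted p of 0.0519. Neurons, which served as background in nuclei, were not among these cells. In microglia-like cluster 8, thinned in the same way at medians of 1448 and 1399 UMIs, S100a11 was found in 4.79% ± 1.57 of FGF1 and 2.91% ± 2.71 of vehicle cells, so that the vehicle share of cluster 4 was no higher than in microglia-like cells and its FGF1 share was near theirs, at medians of 1355.5 and 1230 UMIs in cluster 4. The cluster 4 shares, and those of clusters 1 and 4 merged (5.96% ± 1.77 and 1.43% ± 0.259), are therefore not read as expression, a limit that also stands beside the S100a11 fold changes of these clusters. Cluster 8 is not known to lack S100a11. Its vehicle mean of 21.8 CPM lay below that of cluster 4 (25.5) and above those of clusters 9 (5.74) and 11 (0). The comparison with it therefore does not show a lack of expression either.

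Partners of S100 proteins were called in part of these clusters. In cluster 0, where 5.27% of all genes were called, 17 of the 22 were tested, 4 were higher and 1 was lower, with Plat (1.03 ± 0.27), Ager, the receptor for S100b (0.75 ± 0.18), and Anxa2 (0.62 ± 0.12) higher and Syt1, a synaptotagmin of the FGF1 export complex, lower (-0.85 ± 0.24). In cluster 6, Anxa2 was higher (0.55 ± 0.14) and Syt1 lower (-1.52 ± 0.27) among 17 tested, beside 1.28% of all genes. Syt1 is also on the list of neuron markers. It was low, at 17.9 CPM after FGF1 and 27.0 after vehicle in cluster 0, and at 10.3 and 36.2 CPM in cluster 6. The part of neuronal RNA in these Syt1 values was not tested. Plat was the only partner called in cluster 1 (1.46 ± 0.18, 13 tested, beside 0.404% of all genes), and 0 of 12 were called in cluster 4 by edgeR (0.385%). In oligodendrocyte-like cluster 2, Anxa2 (1.60 ± 0.27) and Anxa5 (0.61 ± 0.15) were higher among 13 tested, beside 0.904% of all genes. Anxa2 and Anxa5, which encode annexins, were the partners called in clusters 7 (11 tested) and 10 (7 tested), and Anxa5 and Sugt1 those in cluster 5 (9 tested), all higher, beside 1.94%, 2.13% and 2.39% of all genes. The other S100 genes gave 1 call, S100a3 in the merged tanycyte-like cells (1.45 ± 0.34, FDR = 0.0157, beside 5.08% of all genes). EF-hand genes gave 0 calls among 20 tested in cluster 0, Pvalb higher (0.97 ± 0.24) and Calb1 lower (-0.66 ± 0.17) among 18 in cluster 6, Sri higher (0.54 ± 0.15) among 15 in cluster 5, and 3 higher and 5 lower calls among 22 tested in the merged astrocyte-like cells, where 12.6% of all genes were called, with Rcn1 (0.88 ± 0.26) among the higher and Vsnl1 (-1.31 ± 0.37) among the lower. The 6 neuron markers summed to 206 to 404 CPM in FGF1 and to 369 to 711 CPM in vehicle cells of the merged astrocyte-like clusters, and their part in these calls was not tested.

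**Figure D4:**
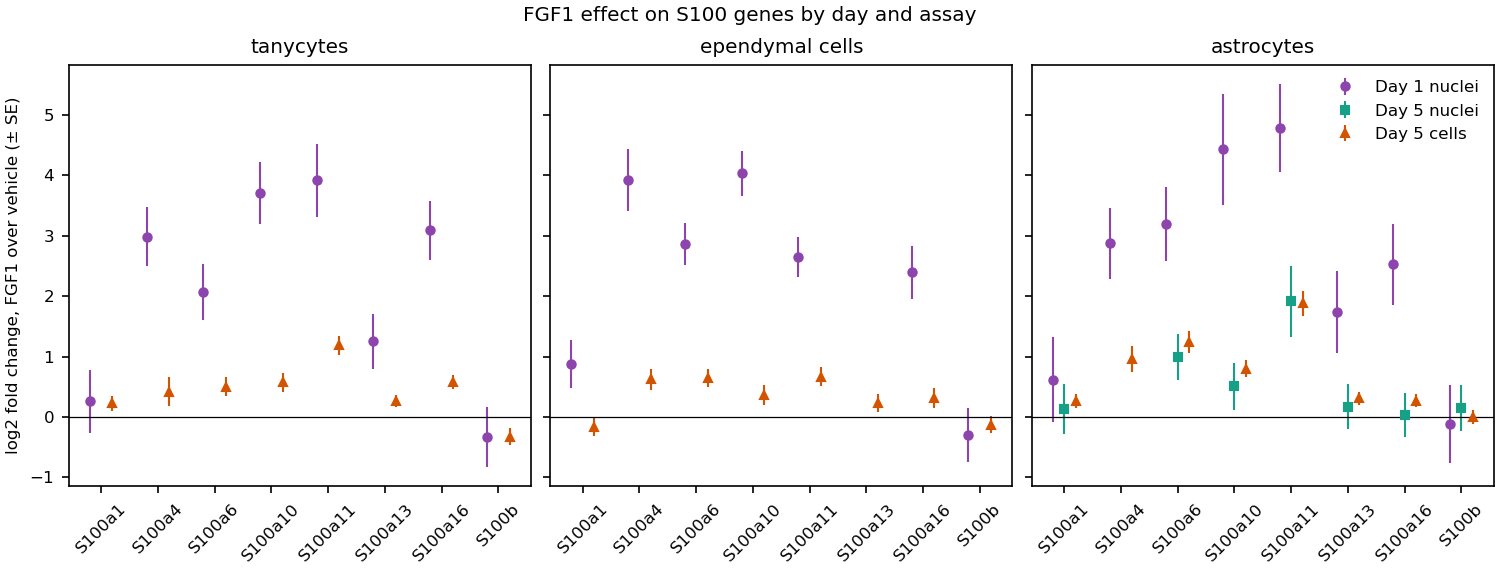
Points give the log2 fold change, FGF1 over vehicle, with its SE (y axis) of each S100 gene (x axis) in tanycytes, ependymal cells and astrocytes, for Day 1 nuclei (circles), Day 5 nuclei (squares, astrocytes only) and Day 5 whole cells (triangles, clusters of 1 name merged). The S100a10 log2 fold change is 3.71 in Day 1 tanycyte nuclei and 0.57 in Day 5 tanycyte-like cells, and S100b lies near 0 in every panel.

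Set side by side, the fold changes of Day 1 nuclei and Day 5 whole cells come from different mice, of a different strain stock and supplier, and from different tissue pieces and kinds of library, and the difference between them was not tested. In tanycytes the log2 fold change of S100a10 was 3.71 on Day 1 and 0.57 on Day 5, and that of S100a11 was 3.92 and 1.18. In ependymal cells the log2 fold change of S100a6 was 2.87 and 0.65. The libraries held 2652897 to 16345981 UMIs, and no pair of libraries shared more than 81 cell barcodes.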

How the data were processed

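UMI counts per gene and nucleus or cell were deposited by the authors, who made them with 10x 3′ v2 libraries and Cell Ranger 1.2 on GRCm38, with introns counted for nuclei, per the study's methods. The authors' metadata gave cell types, cluster numbers and batches, and doublets were removed by them in whole cells only. Deposited counts were added up within each mouse and type (at least 10 cells, 2 mice an arm) and tested with edgeR 4.0.16 in R 4.3.3 (filterByExpr, TMM, robust quasi-likelihood, no covariates, Benjamini-Hochberg FDR under 0.05). 660 filtered nuclei were left out. Libraries held 2721087 to 16345981 UMIs (nuclei) and 2652897 to 11866269 UMIs (cells). Whole-cell clusters were named from at least 3 markers found in 10% of cells at 2-fold. Members and lists were chosen with earlier results of these data known, and genes of the lists were named where called, up to 4 a list. Alternatives were DESeq2 1.42.0, RLE factors, no count filter, a minimum of 30 cells, a limit on mitochondrial and ribosomal UMIs, blocks, and leaving out each mouse. Shares used exact permutation tests (scipy 1.17.1) on cells thinned to 1000 UMIs. The fit was tested on simulated data. Intervals between mice cover these mice only. For nuclei, mitochondrial and ribosomal UMIs were counted here from symbols that start with mt-, Rps or Rpl, and 963 of 24965 nuclei exceeded the 5% limit on either. For whole cells both percentages were taken from the deposited metadata, and 4382 of 54890 cells exceeded the 20% limit.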

Additional observations from a re-analysis of the deposited data

Results flagged for a closer look

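Among 66 groups of whole-cell mice tested, 7 held a mouse far from the others by Dixon's ratio, where chance gives about 1 in 20. Vehicle replicate 35, whose title reads FP while the authors' metadata give PF, was high for S100a10 in tanycyte-like cluster 0 (295.8 CPM) and in the merged tanycyte-like cells (252.5 CPM), and for S100a11 in cluster 0 (195.2 CPM). Vehicle replicate 27 was high for S100a4 in oligodendrocyte-like cluster 2 (37.3 CPM), vehicle replicate 22 for S100a6 in ependymal-like cluster 6 (2264 CPM) and vehicle replicate 20 for S100a10 in the merged oligodendrocyte-like cells (29.0 CPM). FGF1 replicate 28 was low for S100a16 in tanycyte-like cluster 7 (353.8 CPM).

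S100a13 had a log2 fold change of 0.37 in tanycyte-like cluster 7 (not called) and of −0.52 in OPC-like cluster 5 (called). The log2 ratio of cluster 7 to cluster 5 within a mouse averaged 0.0623 in 5 FGF1 and −0.922 in 6 vehicle mice, a difference of 0.984. The pair was chosen because the signs differed, so this is a description and no test of it is given.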

How the results depend on the processing

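In Day 1 ependymal cells 5 S100 calls stood under every setting run, and in tanycytes 4 to 6. The 4 astrocyte calls became 1 with the authors' batch as a block and 0 to 3 when a mouse was left out. The 3 calls in other Day 1 types became 12 with no count filter, 10 with DESeq2, 0 with the batch block and 0 to 4 when a mouse was left out. Day 5 nuclei gave 0 calls, and 0 to 2 without 1 mouse, where the lone mouse of an arm is assumed to vary like the other arm. The 8 calls in tanycyte-like clusters became 3 when clusters of 1 name were merged and 5 to 10 without 1 mouse, the 3 in astrocyte-like clusters 1 to 3 (1 without vehicle replicate 29), and the 12 in other clusters 22 with no count filter and 8 to 16 without 1 mouse. The 0 differences between days became 1 with no count filter, and without 1 mouse they stayed at 0, as did those between cell types. The 10 shares became 0 with cells as deposited, which both omits the thinning and keeps cells under 1000 UMIs. The cause of these changes was not tested. Each called member was refitted under each setting that could be run, so that 1 call gave several refits. Of 325 refits under other settings 302 kept the call, and of 496 refits without 1 mouse 398 did, with no change of sign.

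With the replicate block the Day 1 counts were 5 in tanycytes, 5 in ependymal cells, 4 in astrocytes and 2 in other types, where S100a10 in COP was lost (FDR = 0.0889). Same-number correlations were −0.14, −0.50 and 0.52 in astrocytes, so the numbers do not pair the mice. Ependymal cells could not be fitted at a minimum of 30 cells. Vehicle tanycytes and ependymal cells had 13 to 35 nuclei a mouse.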
